A study of Homo sapiens with 3 samples.

Results

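The mRNAs of TTR, APOA2, AFP, APOA1, APOB and A2M encode plasma proteins that the yolk sac endoderm and then the liver secrete. They were followed in H9, a long-established line of human embryonic stem cells, under conditions that keep it pluripotent. The 6 genes were found by gene symbol among 18417 named genes and are covered by 7 of 33297 probe sets, 2 of them for APOA1. RNA came from 3 sources, each measured on 1 Affymetrix human gene array: RNA bound to polysomes (mRNAs with several ribosomes on them), RNA left unbound by polysomes, and total RNA. The polysome pools were purified with the PureLink RNA mini kit and total RNA with the RNeasy Plus mini kit, so the kit and the RNA source cannot be told apart wherever total RNA is compared. All groups are H9 cells with no treatment named in the labels. With 1 array per source no difference has a replicate check, and no p-value is given. The genes were chosen by their differences between bound and total RNA on these arrays, so those differences are a description.

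In the embryo the yolk sac endoderm makes plasma proteins before the liver is formed, and hepatocytes take over that task. TTR carries thyroid hormone and, bound to the retinol carrier RBP4, vitamin A. AFP is the fetal counterpart of albumin. APOA1 and APOA2 are the main proteins of high-density lipoprotein, APOB is the backbone protein of chylomicrons and low-density lipoprotein, and A2M traps proteases in plasma. All of these proteins enter the endoplasmic reticulum while they are being translated. Their genes are used as readouts of endoderm and liver differentiation.

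The regions before the starts of APOA2 and AFP are shown because liver genes of this kind are known for promoters read by FOXA factors. They are RefSeq sequences of the build GRCh38.p14. Of the 6 genes, only these 2 were matched in the promoter table used. Each line gives the 250 bases before the annotated start, 5′ to 3′ on the gene's strand. Capitals mark matches, on either strand, to the letters searched: TATAAA for the TATA box, TGTTTNC for FOXA sites, CAAAGT for the core of HNF4 sites, AGATAA for sites of GATA factors, and CCAAT for the box of that name.
APOA2 (chr1:161223629-161223878, minus strand): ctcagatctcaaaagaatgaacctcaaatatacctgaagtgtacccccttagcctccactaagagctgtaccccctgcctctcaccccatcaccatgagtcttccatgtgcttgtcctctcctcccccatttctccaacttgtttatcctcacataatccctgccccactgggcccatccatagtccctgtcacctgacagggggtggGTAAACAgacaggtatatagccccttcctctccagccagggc
AFP (chr4:73435971-73436220, plus strand): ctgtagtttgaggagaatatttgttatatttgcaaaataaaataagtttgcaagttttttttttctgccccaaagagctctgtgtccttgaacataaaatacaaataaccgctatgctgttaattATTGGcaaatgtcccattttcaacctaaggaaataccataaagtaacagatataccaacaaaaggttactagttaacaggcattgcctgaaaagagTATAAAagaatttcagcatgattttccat
The APOA2 window held 1 match, to the FOXA letters on the opposite strand, from 42 to 36 bases before the start. The AFP window held the CCAAT box on the opposite strand from 125 to 121 and the TATA box from 29 to 24 bases before the start. None of these matches overlapped another. Of 35116 RefSeq windows of the same length, 15.5% held the FOXA letters, 32.0% the CCAAT box and 10.7% the TATA box. The letters for HNF4 sites (10.3% of all windows) and for GATA factors (9.17%) were in neither window. The GC content was 52.8% for APOA2 and 31.6% for AFP, against a median of 58% over all windows. A match is a string of letters and does not show that a factor binds.

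In total RNA the 6 transcripts were at or near background. The authors deposited log2 levels. The background line of an array was the 95th percentile of its levels over 482 genes that other tissues use (taste and olfactory receptors, defensins and keratin-associated proteins). It was 3.75 in total, 3.55 in unbound and 4.39 in bound RNA. In total RNA 4 of the 6 lay above the line, where 63.9% of all named genes did. The stricter 99th percentile was 4.98 in total RNA, and all 6 lay under it, where 46.9% of all named genes exceeded it. In unbound RNA all 6 were above the line (all named genes 63.4%), and in bound RNA all 6 were (all named genes 65%). They also exceeded the 99th percentile in unbound (4.44) and bound RNA (5.93), as did 51.4% and 47.9% of all named genes.

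**Figure D1:**
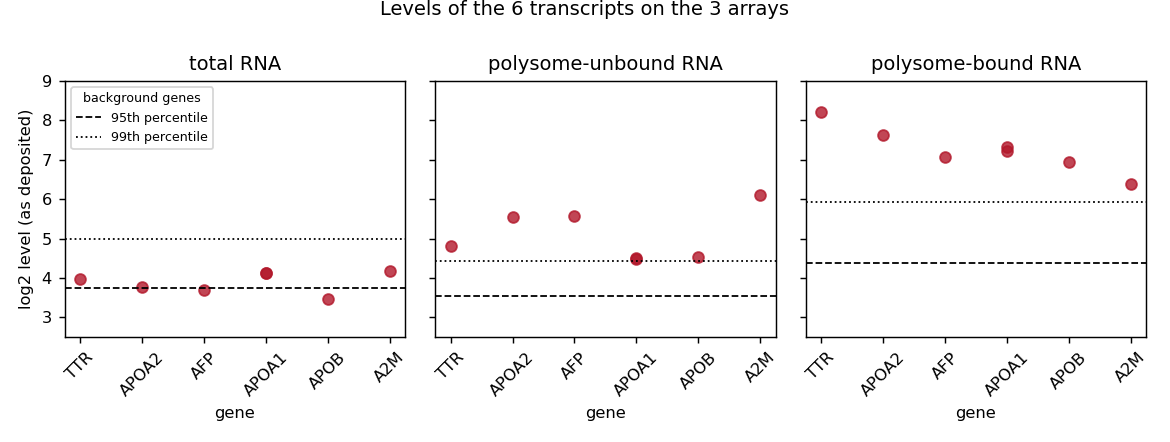
Log2 level as deposited (vertical axis) of each of the 7 probe sets (points; APOA1 has 2) on the total, polysome-unbound and polysome-bound arrays, 1 array each. Dashed and dotted lines are the 95th and 99th percentiles of 482 background genes on that array; all points lie under the dotted line in total RNA and above it in the other panels.

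Among the carriers, TTR had a log2 level of 3.96 in total, 4.82 in unbound and 8.22 in bound RNA. It was thus near background in total RNA and far above it in the bound pool. AFP had 3.68 in total RNA, under the line, 5.58 in unbound and 7.08 in bound RNA. Its level in total RNA is therefore only a bound.

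Of the apolipoproteins, APOA2 stood at 3.76 in total, 5.55 in unbound and 7.62 in bound RNA. Its total RNA level exceeded the line by 0.015. For APOA1 the kept probe set gave 4.13, 4.52 and 7.34 in total, unbound and bound RNA, and the second gave 4.13, 4.47 and 7.22. These probe sets differed by at most 0.12 on any array, but the annotation pairs both with the same transcripts and they are no replicates. APOB was under the line in total RNA at 3.47 and reached 4.53 in unbound and 6.94 in bound RNA, with the unbound level 0.09 above the 99th percentile of background.

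A2M, the protease inhibitor, had 4.18 in total, 6.09 in unbound and 6.38 in bound RNA. It was the member with the smallest gap between the bound and unbound arrays, 0.29 as deposited.

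Bound RNA was compared with total RNA to ask which transcripts are over-represented on polysomes. Relative to the other genes, all 6 transcripts passed 2-fold toward bound RNA, as did 2.67% of the 12066 genes past a filter on mean level. Nothing is read from that count, since the genes were chosen with this contrast known. APOA2, AFP and APOB, under the filter level of 3.84 in total RNA, also passed the filter only through their levels in the polysome pools. A relative difference is the log2 difference after the 2 array medians, taken over the 12066 genes, were set equal, which took away 1.03 for bound against total RNA. TTR had the highest value, 3.22 (9.34-fold, rank 2 of 12066). It was followed by APOA2 at 2.83 (7.09-fold, rank 4), APOB at 2.44 (rank 12), AFP at 2.37 (rank 13), APOA1 at 2.18 (4.53-fold, rank 21) and A2M at 1.18 (2.26-fold, rank 189). The median of the 6 was 2.40, beside -0.14 over all 12066 genes.

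As deposited, the same differences ran from 2.21 (A2M) to 4.25 (TTR), and 40.1% of the 12066 genes passed 2-fold on that scale. After quantile normalization they ran from 1.19 to 3.34, and with a lowess trend removed from 1.20 to 3.21, so no scaling turned the direction of any member. APOA1's second probe set gave a relative difference of 2.05 beside 2.18. Over 354 other genes with 2 probe sets, the median gap between the probe sets in this comparison was 0.16 and the 90th percentile of the gap was 0.68. That is the only repeat measurement on these arrays, and it covers neither culture nor extraction.

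Because total RNA was so dim, the folds rest on where its background is set. AFP and APOB, under the line in total RNA, exceeded it in bound RNA at least 10.1-fold and 9.12-fold as deposited, and at least 4.94-fold and 4.47-fold after the offset was taken away. With the 99th percentile of background as the level in total RNA for all members, the relative folds were at least 4.63 for TTR, 3.06 for APOA2, 2.51 for APOA1, 2.11 for AFP, 1.91 for APOB and 1.30 for A2M. On that stricter line the bounds of APOB and A2M fell short of 2-fold. In bulk RNA fewer cells that hold a transcript and less of it per cell cannot be told apart.

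**Figure D2:**
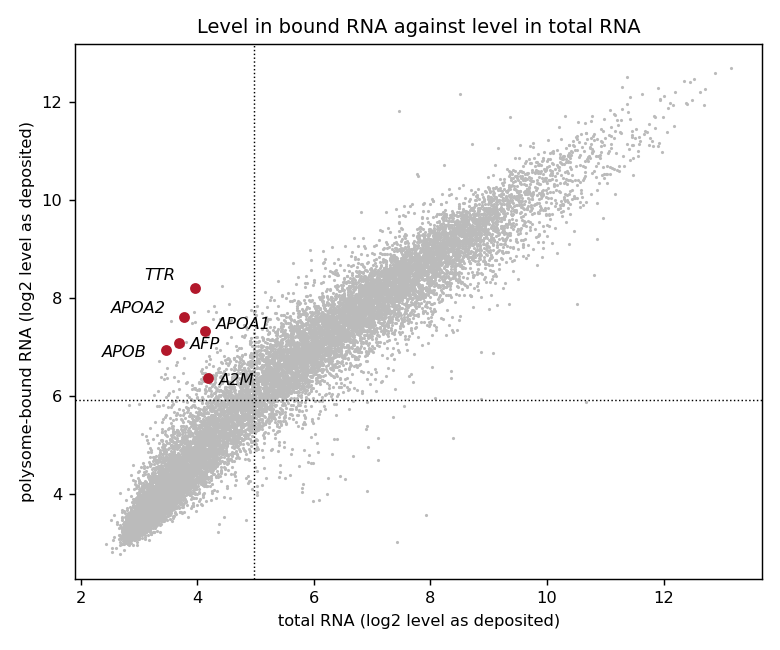
Log2 level in polysome-bound RNA (vertical) against log2 level in total RNA (horizontal), both as deposited, for 18417 named genes (grey) and the 6 transcripts (red). Dotted lines are the 99th percentile of background on each array; the 6 transcripts fall in the upper left field, dim in total RNA (under 4.98) and above 5.93 in bound RNA.

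The change from dim to bright was not particular to the 6 genes. Of the 18417 named genes, 9777 were at or under the 99th percentile of background in total RNA, and 550 of these exceeded it in bound RNA (2.99% of all named genes). In 389 genes (2.11%) the level exceeded the 99th percentile in unbound RNA too, and all 6 transcripts were among them. By the size of the step from total to bound RNA, TTR ranked 1 of the 550, APOA2 3, APOB 10, AFP 11, APOA1 19 and A2M 100. The ranks of APOB and AFP rest on total RNA levels under the line. Since the genes were chosen by this step, nothing is read from their ranks or from their place among the 389. Genes between them included the zinc transporter SLC30A10 (rank 2), ANKRD36B (rank 4) and LMO3 (rank 6).

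The bound and unbound pools were purified with the same kit, and their comparison asks how far a transcript sits on polysomes. Relative to an offset of 1.26, TTR (2.14), APOA1 (1.56) and APOB (1.14) passed 2-fold toward bound RNA, as did 6.33% of the 12066 genes. TTR ranked 8 of 12066, APOA1 120 and APOB 500. APOA2 (0.80) and AFP (0.24) did not reach 2-fold relative to the other genes, although as deposited they were 4.19-fold and 2.83-fold higher in the bound pool, where 61.4% of the 12066 genes passed 2-fold. A2M lay on the other side with a relative difference of -0.97, rank 10803, which was -0.89 after quantile normalization and -1.03 after lowess, but 0.29 as deposited. The median of the 6 was 0.97, beside -0.07 over all genes. The bound array is also one of the 2 by which the genes were chosen, so these values too are a description.

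The relative differences of the 6 mRNAs ran from -0.97 to 2.14. Over the 354 genes with 2 probe sets the median gap between the probe sets in this comparison was 0.18 and its 90th percentile 1.05, and APOA1's probe sets differed by 0.07. Without replicate arrays the order of the members could not be tested.

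**Figure D3:**
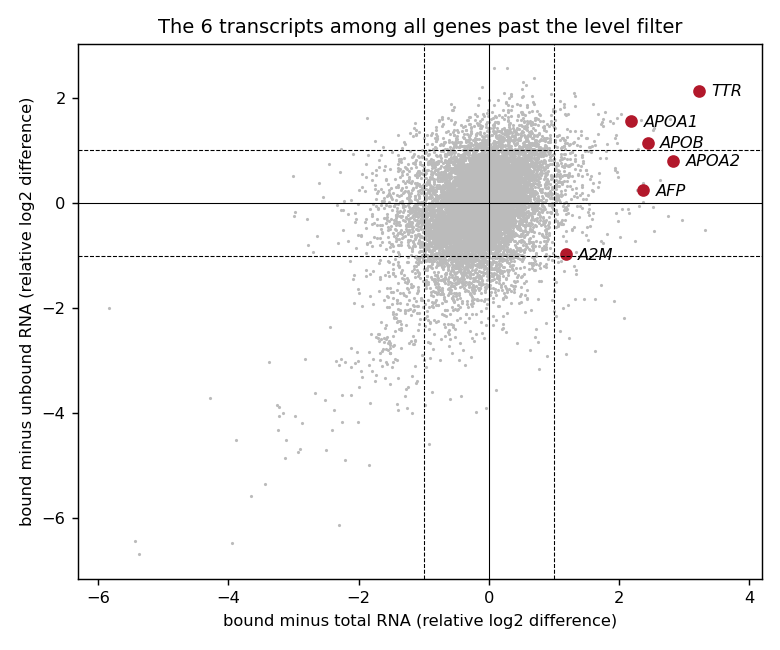
Relative log2 difference of bound minus unbound RNA (vertical) against bound minus total RNA (horizontal) for the 12066 genes past the level filter (grey) and the 6 transcripts (red), 1 array per source. Solid lines mark 0 and dashed lines 2-fold; all 6 lie right of the 2-fold line, from A2M (1.18) to TTR (3.22), and they spread from -0.97 (A2M) to 2.14 (TTR) on the vertical axis.

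Unbound RNA shares the total RNA array with the comparison above, so its values are given beside those and are no separate evidence. Relative to an offset of -0.23, A2M (2.15), AFP (2.13), APOA2 (2.02), APOB (1.30) and TTR (1.09) were at least 2-fold higher in unbound than in total RNA, and APOA1 (0.62) was not. Of the 12066 genes 8.1% were. As deposited TTR was 1.81-fold higher and the other 4 still passed 2-fold, as did 5.42% of the 12066 genes. After quantile normalization TTR had 0.99. Against the line in total RNA, the values as deposited put AFP at least 3.56-fold and APOB at least 1.72-fold higher. For TTR, APOA1 and APOB the unbound level was under the 99th percentile of background in total RNA, so that line gives no fold for them. In all, 5 of the 6 were at least 2-fold above total RNA in both pools, and 1.14% of the 12066 genes were.

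Likeness of profile was measured as the Euclidean distance over the 3 arrays, with each array centred on its median and each gene on its own mean. TTR was nearest to ANKRD36B (distance 0.40), CSAD (0.57) and SGPP2 (0.59), and among the other members to APOB (rank 5) and APOA1 (rank 6). APOB had SNORD117 (0.11), SGPP2 (0.18) and CSAD (0.21) nearest. AFP was close to SLC25A27 (0.08), ZNF204P (0.12) and VGLL1 (0.19). APOA2 had H3C7 (0.26), ZNF204P (0.36) and AFP (0.42) nearest, so AFP is the only member among the 3 genes closest to another. APOA1 was nearest to ABCA4 (0.12), PLCE1 (0.20) and DCC (0.20), and A2M to DLX5 (0.03), ARGLU1 (0.04) and ZNF514 (0.09). A2M was far from TTR, at rank 2989. With 3 arrays a profile has few ways to differ, and many genes lie close to any given one.

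None of the measured genes nearest the members on the chromosome passed 2-fold toward bound against total RNA by relative difference. AFP lies between ALB, its adult counterpart, and AFM on chromosome 4. ALB had 3.71 in bound, 2.98 in unbound and 3.13 in total RNA and AFM had 3.53, 3.11 and 3.09, all under background. APOA1 shares a cluster on chromosome 11 with APOC3, at 4.37, 3.44 and 3.26 in bound, unbound and total RNA, and APOA4, at 5.28, 3.49 and 3.46. Only the bound level of APOA4 was above its line, and its relative difference of bound minus total RNA was at least 0.50 against the line. PZP, the A2M relative beside A2M on chromosome 12, was under background on all 3 arrays (3.80, 2.87 and 3.24). On chromosome 18 the neighbours of TTR past the filter were DSG2, a desmosome cadherin, and B4GALT6. Their relative differences of bound minus total RNA were -1.03 and 0.11, and DSG2 had 8.28 in bound and 8.29 in total RNA. Past the filter near APOA2, TOMM40L had a relative difference of 0.06, and near APOB, LDAH had -0.24 and KLHL29 -0.43.

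The rest of the plasma protein programme was mostly not detected. The lists that follow count all measured genes, past the filter or not. Beside them, 1.75% of the 18417 named genes passed 2-fold toward bound and 4.48% toward total RNA by relative difference, with a median of -0.36. Of 17 other measured apolipoproteins 6 were above background in bound and 5 in total RNA, and none was 2-fold higher or lower in bound RNA (median -0.42). APOA4 (measured 0.80) and APOL2 (0.14) were highest and CLU (-0.88) and APOE (-0.29), both well above background in total RNA at 8.73 and 7.19, were lowest among those past the filter.

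Of 50 other secreted liver proteins 9 were above background in bound RNA, 10 in unbound and 7 in total RNA, and 2 passed 2-fold toward bound against total RNA, with none the other way (median -0.45). These were the fibrinogen chain FGB (1.17) and RBP4 (1.12), the retinol carrier that travels with TTR. RBP4 had 3.47 in total RNA, under the line, 3.64 in unbound and 5.62 in bound RNA, and exceeded the line in bound RNA at least 3.65-fold as deposited and 1.79-fold after the offset was taken away. FGB had 4.07, 4.84 and 6.26 in total, unbound and bound RNA. The other fibrinogen chains, named after their values were seen, were under background in total RNA, and bound RNA exceeded that line at least 2.55-fold (FGA) and 2.29-fold (FGG) as deposited, and 1.25-fold and 1.12-fold after the offset was taken away. Lowest past the filter were AMBP, which was under background in bound RNA, and SERPING1 (-0.55), and SERPINA1, the main protease inhibitor of liver, had 0.32.

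Of 6 measured genes of the A2M family, 2 were above background in bound RNA and 3 in total RNA. The relative differences of bound minus total RNA were 0.68 for CPAMD8 and 0.67 for the complement gene C5, beside 1.18 for A2M. CD109 was under background in bound RNA, and against that line it had -0.93 or lower.

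Genes that load and remodel lipoproteins were measured for 17 of 21. Of these 9 were above background in bound and in total RNA, and none passed 2-fold between them (median -0.37). MTTP, which loads lipid onto APOB, was under background on all 3 arrays (4.005 in bound, 2.88 in unbound and 3.15 in total RNA). ABCA1, which hands cholesterol to APOA1, had a relative difference of 0.84 and TM6SF2 0.68, and PLTP (-0.88) and P4HB (-0.61) were lowest.

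Receptors that take up the proteins were present in total RNA. Of 11 measured, 9 were above background on each array. Between bound and total RNA 1 was 2-fold lower, LRP8 (-1.22), and none higher, while between bound and unbound RNA 4 were 2-fold higher, where 4.16% of all named genes were. The endocytic receptor LRP2 had 1.12 in that comparison and the receptor chaperone LRPAP1 1.73. LRP2 (0.20) and LRPAP1 (0.50) were also the highest for bound minus total RNA, and SORL1 (-0.80) was near the low end.

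Of 22 measured transcription regulators of liver and endoderm genes, 13 were above background in bound, 14 in unbound and 13 in total RNA, but 3 exceeded the 99th percentile in total RNA. NR2F1 (1.52) alone passed 2-fold toward bound against total RNA, with TBX3, under background in total RNA, at 0.38 or higher against the line. GATA6 (-1.02) alone passed it the other way, and was 0.01 as deposited. EOMES was under background in bound RNA. FOXA2 had 4.48 in bound, 3.65 in unbound and 3.98 in total RNA, which exceeded the lines by 0.09, 0.10 and 0.23.

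**Figure D4:**
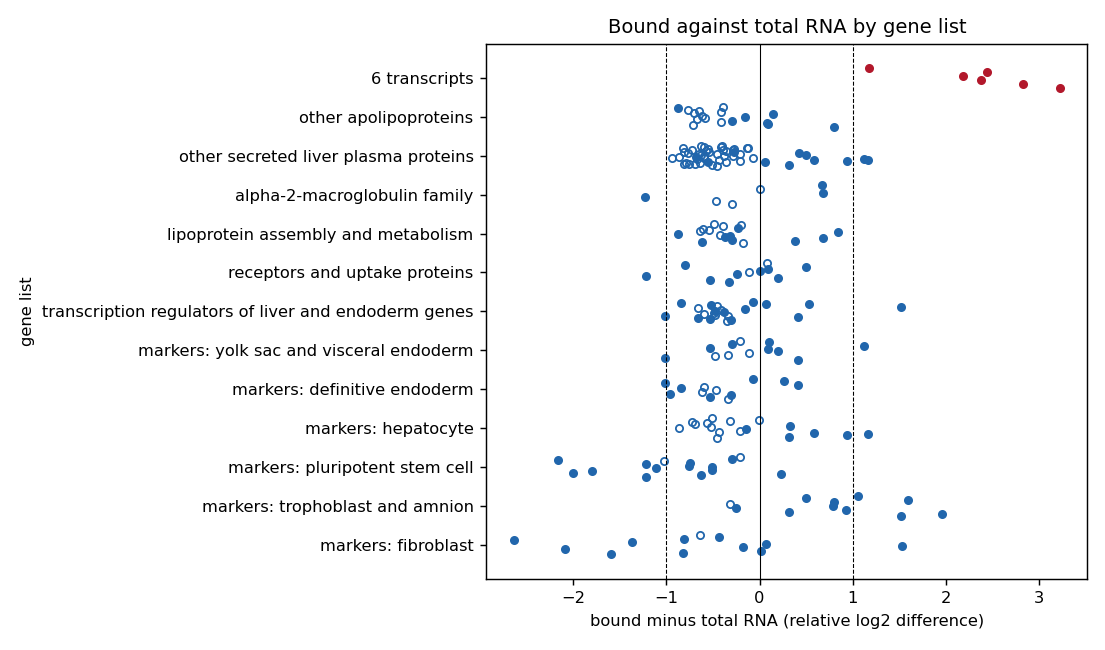
Relative log2 difference of bound minus total RNA (horizontal) for the 6 transcripts (red) and each measured gene of 6 related gene lists and 6 marker lists (blue), 1 point per gene; open points are genes under the level filter. Dashed lines mark 2-fold; the 6 transcripts run from 1.18 to 3.22, and of the other lists the trophoblast and amnion markers have the most points past 2-fold higher, 4 of 11.

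Markers of cell types were read from the same arrays. Beside their counts, 65% of all named genes were above background in bound, 63.4% in unbound and 63.9% in total RNA. Pluripotency markers were present, and in total RNA 13 of 15 exceeded background, including LIN28A (11.10), PODXL (9.92) and TERF1 (9.82). Of the 13 past the filter, none was 2-fold higher and 6 were lower in bound against total RNA by relative difference. As deposited 1 was higher and 1 lower. Of all 12066 genes past the filter, 322 were higher and 771 lower by relative difference, and 4836 and 69 as deposited. The log2 of their summed levels was 13.1 in bound, 12.02 in unbound and 12.9 in total RNA.

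Some markers of the cells that normally make the 6 transcripts were above background. For the endoderm lists the shares were near those of all named genes, so no presence of such cells is read from them. Of 12 measured yolk sac and visceral endoderm markers, 9 were above background in bound and 8 in unbound and total RNA, with log2 summed levels of 10.6, 9.24 and 9.51. The highest in total RNA were FLRT3 (7.63), LRP2 (7.36) and APOE (7.19), none of which is limited to yolk sac. SOX7 and CUBN were under background on all 3 arrays. Definitive endoderm markers were above background for 8 of 12 in bound, 8 in unbound and 9 in total RNA (summed 9.01, 8.004 and 8.26), among them KIT (6.46), CXCR4 (5.75) and GATA6 (5.30) in total RNA. KIT, CXCR4 and GATA6 were the only 3 of the 12 above the 99th percentile in total RNA, where 46.9% of all named genes were. In bound RNA 1 of the 12 exceeded it, as did 47.9% of all named genes. SOX17, at 3.77 in total RNA, exceeded the 95th percentile line by 0.02. Of 17 hepatocyte markers 6 were above background in bound, 7 in unbound and 4 in total RNA (summed 9.84, 8.70 and 8.84), with CPS1 (8.14), SERPINA1 (4.64) and FGB (4.07) highest in total RNA and ALB under background on all arrays.

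Against total RNA, the trophoblast and amnion markers as a list leaned toward the polysome pools, as the 6 transcripts did. GATA2 (-0.26) and CGA (-0.32, under background on all arrays) went the other way for bound minus total RNA. The 6 were chosen by that comparison, and the marker list with earlier results of these data known. Nothing is therefore read from the likeness of the 2 sets. Of 11 measured markers 10 were above background in bound, 10 in unbound and 8 in total RNA. Relative to total RNA, 4 passed 2-fold in the bound pool (1.75% of all named genes) and 4 in the unbound pool (5.35%), with medians of 0.79 and 0.90. The bound pool's 4 include ELF5, which was under background in total RNA and was at least 1.63-fold higher against the line after the offset was taken away. Between bound and unbound RNA none of the 11 passed 2-fold, with a median of -0.20. Of the 6 transcripts 5 had a positive relative difference there, 3 of them past 2-fold, and A2M a negative one (range -0.97 to 2.14). Among the genes of the list with the highest levels in total RNA, TFAP2A had a relative difference of bound minus total RNA of 1.52, GATA3 0.93 and TFAP2C 0.32. The log2 of the summed level was 10.7 in bound, 9.66 in unbound and 8.67 in total RNA. Of 12 fibroblast markers (summed 11.5, 9.36 and 11.5), 1 was 2-fold higher and 4 were lower in bound than in total RNA by relative difference, but as deposited 3 were higher and 2 lower. Those highest in total RNA were COL1A1 (relative difference -1.59), THY1 (-1.36) and COL1A2 (-0.82, and 0.20 as deposited). The part of other cell types, of the culture behind each RNA and of the extraction kit in the levels of the 6 transcripts was not tested.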

How the data were processed

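Expression was measured in 3 RNA sources of H9 cells on 1 array each, grouped by the labels' sample type. Values deposited by the authors are log2 levels by probe set, made with Partek 6.5 and RMA per the submitters' processing notes. How arrays were scaled to each other is unknown, because their distributions differ. The bound column appears to hold an added constant of at least 0.113 (each of its 33297 values has the same last 2 decimals), which relative differences cancel. Having 1 array per source limits the precision.

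Gene names came from GEO's platform annotation. Of the probe sets, 19460 list 1 symbol, 1754 list several and 12083 are not listed, and the last 2 kinds were not named. Gene IDs of 19429 matched RefSeq (GRCh38.p14). Where a gene had several probe sets (769 genes), that of highest mean stands for it. Genes with a mean over the 3 arrays above 3.84, the 95th percentile of 482 tissue-restricted genes, passed the level filter (12066 of 18417, and all 6 members). The threshold was 2-fold, with no test.

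The members, lists and tests were chosen with earlier results of these data known. Named genes were all members, the 2 highest and 2 lowest of each related list for bound minus total RNA past the filter, the 3 highest of each marker list in total RNA, a fixed set of partner genes, and the 3 nearest profiles of each member. Alternatives were values as deposited, quantile normalization, lowess (span 0.3), no filter or one at the 99th percentile, the mean of probe sets, thresholds of 1.5-fold and 3-fold, other background percentiles and subtraction of the constant. The scripts were tested on simulated data. The tools were Python 3.11.15 with pandas 2.3.3, numpy 2.4.6, matplotlib 3.10.9 and statsmodels 0.14.6.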

Additional observations from a re-analysis of the deposited data

How the results depend on the processing

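For bound against total RNA the count of transcripts past 2-fold was 6 under each scaling, with no filter and with the mean of probe sets. It was 5 at 3-fold (without A2M) or under the stricter filter, which leaves out APOB. Of the 12066 genes 322 passed, 4836 as deposited, 395 after quantile normalization and 389 after lowess. Counts over all genes are given here for the scalings alone. Nothing is therefore read from the member counts at other thresholds or filters. The count for bound against unbound RNA was 3. It was 5 with values as deposited, also with the constant subtracted (chosen after seeing the data). At 1.5-fold it was 4, under the stricter filter 2 and at 3-fold 1. Toward bound RNA 764 of the 12066 genes passed, 7407 as deposited (61.4%), 1296 after quantile normalization and 769 after lowess. For unbound against total RNA the count was 5, and 6 at 1.5-fold. It was 4 under the stricter filter, as deposited or after quantile normalization, and 3 at 3-fold. Toward unbound RNA 977 of the 12066 genes passed, 654 as deposited, 885 after quantile normalization and 1132 after lowess. The number above background in total RNA was 4, and 0 with the line at the 99th percentile, where 63.9% and 46.9% of all named genes were above. A2M was the single gene whose difference changed sign, for bound minus unbound RNA, to 0.29 as deposited and 0.18 with the constant subtracted. No member has a total RNA level above the 99th percentile of background, so signal over background limits every comparison with total RNA. No paired analysis was possible because each group has 1 array.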
